A study of Mus musculus with 14 samples.

Results

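Expression of 10 chemokine genes was followed across kidney cortex libraries of mice that differ in genotype and in dietary vitamin A: Cxcl1, Cxcl9, Cxcl10, Cxcl12, Cxcl14, Cxcl16, Cx3cl1, Ccl2, Ccl5 and Ccl28. They were chosen by name from the 22007 gene IDs of the deposited table, each name matched 1 row, and all 10 entered the tests with 12251 genes. TRACK mice carry a transgene, written GGT-HIF1A_M3 in the labels, in which the promoter of gamma-glutamyl transpeptidase drives a constitutively active HIF1A in proximal tubule cells. All mice had a C57BL/6 background. From 2 weeks after weaning they ate either regular chow, which is sufficient in vitamin A, or a vitamin A deficient diet (VAD), and cortex was taken after 24 weeks. Chow-fed mice gave 3 wild-type libraries (WT) and 4 transgenic ones (TRACK), and mice on the deficient diet 3 wild-type (WT-VAD) and 4 transgenic ones (TRACK-VAD). HIF1A is the oxygen-regulated subunit of a hypoxia-inducible transcription factor, so the design asks what the transgene does to cortex expression on each diet and what the diet does in each genotype.

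Chemokines are small secreted or membrane-anchored proteins that bind G protein-coupled receptors on leukocytes and set where those cells move. CXCL9 and CXCL10 are induced by interferons and act on CXCR3 of activated T cells and NK cells, CXCL1 attracts neutrophils through CXCR2, CCL2 attracts monocytes through CCR2, and CCL5 attracts T cells and macrophages. CXCL12 acts on CXCR4 in development and in the retention of blood cell precursors, and CXCL14 is made by epithelia, with a receptor that is not settled. CXCL16 and CX3CL1 (fractalkine) are made as transmembrane proteins that can be shed, and act on CXCR6 and CX3CR1. CCL28 is a chemokine of mucosal epithelia that attracts IgA-producing plasma cells through CCR10. In the kidney, injured tubule cells are a known source of several of these ligands.

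Levels are given as scaled FPKM, that is, the deposited fragments per kilobase of transcript, already adjusted for depth by the authors, divided by 1 factor per library (0.897 to 1.18). The absolute depth is unknown; relative depth, read from low genes, ran from 0.778 to 1.29 times their geometric mean. The summed level of 8 proximal tubule markers was 3835.5 to 4895.5 in WT, 3484 to 4179.8 in WT-VAD, 2165.5 to 2479 in TRACK and 1119 to 2762 in TRACK-VAD. These sums show proximal tubule RNA in every library. They cannot tell cortex from whole kidney, so the cortex label itself was not tested. The mouse Hif1a gene was at 27.8 ± 3.02 in TRACK (SD, n = 4) and 29.1 ± 1.79 in WT (SD, n = 3), which does not check the transgene, since no source used here says whether its reads were counted there. TRACK-VAD library 2 stood apart from its group. Its mean correlation with the other libraries of the group was 0.967 (0.974 to 0.979 for those). Its macrophage and dendritic cell markers summed to 1022 (400 to 449 in the other 3), of which Cd74 made 781. Its tubular injury markers summed to 8303, of which Spp1 made 7814, and its proximal tubule markers were the lowest of all libraries. By the labels, lane 6 of the sequencer carried the WT-VAD libraries and TRACK-VAD library 4, and lane 5 the other 10. In bulk tissue, fewer cells of a type and less RNA per cell cannot be told apart.

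The proximal promoters of 7 of the 10 genes were in the RefSeq table used here (build GRCm38.p6); Cxcl16, Ccl2 and Ccl5 had no entry. Shown are the 250 bases before the transcription start of the 3 CXC genes on chromosome 5 and of Ccl28, the one of the 10 with the largest difference between genotypes on chow. Capitals mark matches on either strand to 4 motifs: the interferon-stimulated response element core (GAAA, any 2 bases, GAAA), the NF-kB consensus, the hypoxia response element core (ACGTG or GCGTG) and the retinoid receptor half-site AGGTCA.
Cxcl10: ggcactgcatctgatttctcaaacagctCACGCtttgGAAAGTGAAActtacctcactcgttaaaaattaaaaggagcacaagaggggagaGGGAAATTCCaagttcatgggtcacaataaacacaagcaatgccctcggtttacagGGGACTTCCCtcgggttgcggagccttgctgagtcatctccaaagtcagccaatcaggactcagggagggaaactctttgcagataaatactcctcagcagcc
Cxcl1: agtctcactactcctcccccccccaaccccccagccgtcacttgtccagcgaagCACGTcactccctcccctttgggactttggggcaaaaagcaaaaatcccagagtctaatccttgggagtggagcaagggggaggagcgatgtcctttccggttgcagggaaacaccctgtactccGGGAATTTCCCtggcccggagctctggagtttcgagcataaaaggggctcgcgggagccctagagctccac
Cxcl9: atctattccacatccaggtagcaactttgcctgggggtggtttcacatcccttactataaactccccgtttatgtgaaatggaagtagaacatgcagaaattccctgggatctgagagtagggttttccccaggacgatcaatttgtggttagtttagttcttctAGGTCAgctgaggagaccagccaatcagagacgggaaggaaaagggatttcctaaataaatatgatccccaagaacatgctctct
Ccl28: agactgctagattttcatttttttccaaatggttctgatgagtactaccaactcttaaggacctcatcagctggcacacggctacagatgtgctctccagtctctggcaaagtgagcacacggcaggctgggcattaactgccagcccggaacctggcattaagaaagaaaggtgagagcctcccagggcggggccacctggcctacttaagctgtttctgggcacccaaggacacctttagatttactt
These windows are, in the same order, chr5:92348890-92349139 (minus strand), chr5:90890995-90891244 (plus strand), chr5:92328080-92328329 (minus strand) and chr13:119623569-119623818 (plus strand). In the Cxcl10 window, the interferon element lies 213 to 204 bases before the start, 2 NF-kB matches lie at 159 to 150 and 103 to 94, and a hypoxia core reads on the reverse strand at 222 to 218. The longest run of capitals in the Cxcl1 window is 2 overlapping NF-kB matches on opposite strands, 71 to 61 bases before the start, and a reverse hypoxia core lies at 196 to 192. The Cxcl9 window holds 1 retinoid half-site, 85 to 80 bases before the start, and the Ccl28 window holds none of the 4 motifs. Of the windows not shown, that of Cxcl14 holds an interferon element at 172 to 163, hypoxia cores and a retinoid half-site. The Cxcl12 and Cx3cl1 windows hold no match. Among all 32817 promoter entries, searched over the same 250 bases, 2.97% held the interferon element, 3.9% the NF-kB consensus, 38.6% a hypoxia core and 14% the half-site. A match is a description of letters only, and a window without one says nothing of other sequence.

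In wild-type cortex on chow, Cxcl12 had the highest level of the 10 genes (45.1 ± 8.51; SD, n = 3 as for each WT value here), followed by Cxcl16 (24.1 ± 0.721) and Cx3cl1 (21.5 ± 1.95), whose ranges overlapped each other but not that of Cxcl12. Next came Cxcl14 (6.48 ± 1.93), Ccl28 (5.07 ± 2.14), Ccl5 (3.09 ± 0.945) and Cxcl10 (2.33 ± 0.434), each overlapping its neighbour in that order. Cxcl9 (0.482 ± 0.13), Ccl2 (0.367 ± 0.203) and Cxcl1 (0.189 ± 0.137) were under 1 scaled FPKM in every WT library. Ccl2 overlapped both Cxcl9 and Cxcl1, which did not overlap each other. In TRACK the order changed at the top: Ccl28 (79.8 ± 21.9; SD, n = 4) stood above Cxcl12 (39 ± 3.19) with no overlap. Summed over the 10 genes the level was 109 ± 10.3 in WT, 204 ± 32.9 in TRACK, 205 ± 30.3 in TRACK-VAD and 130 ± 2.93 in WT-VAD. Ccl28 made up 4.59% of that sum in WT, 12.1% in WT-VAD, 38.4% in TRACK and 23.9% in TRACK-VAD, where single libraries ran from 6.67% to 43.3%.

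**Figure D1:**
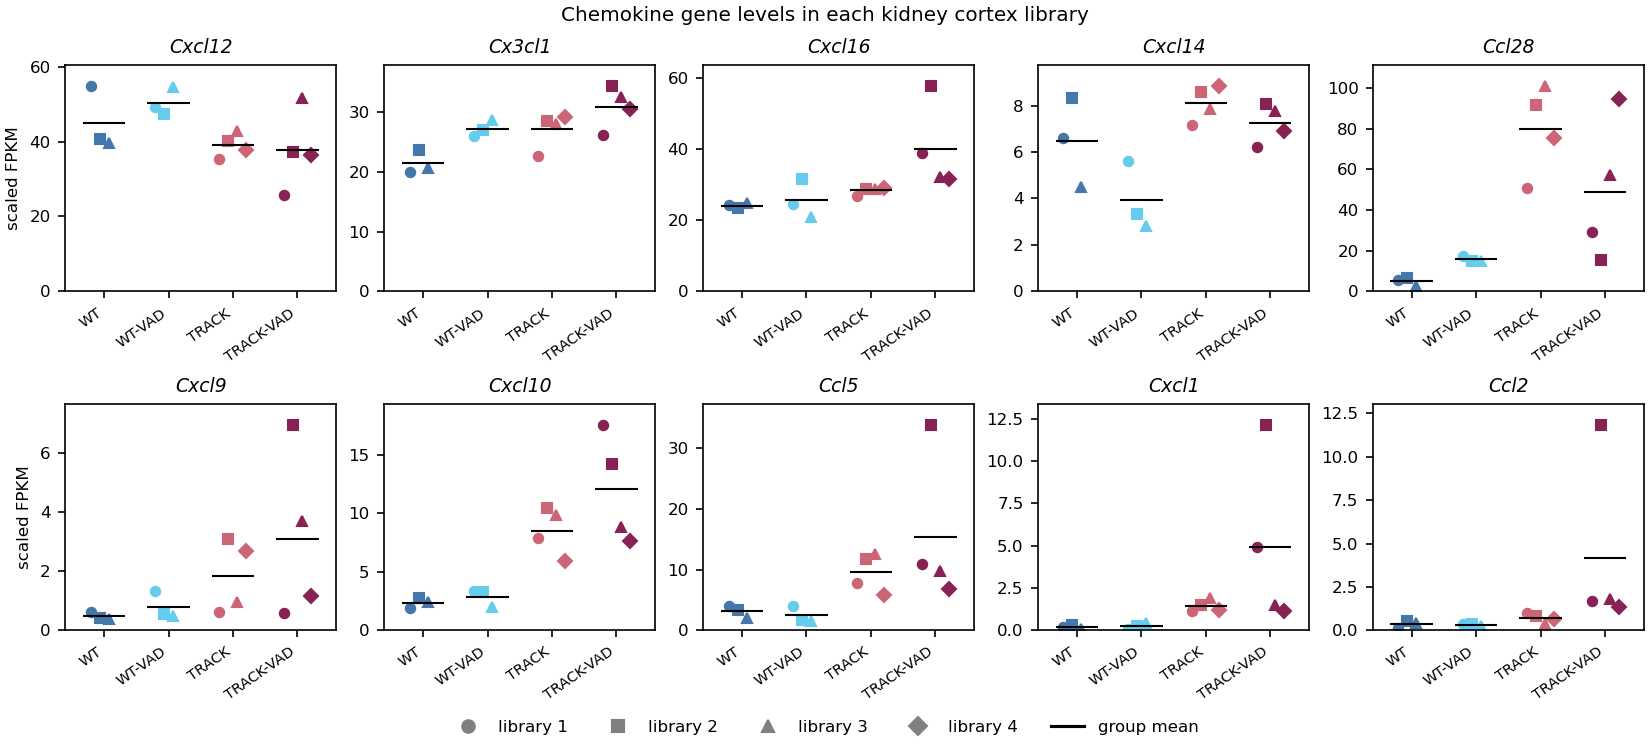
Scaled FPKM (y axis, linear, from 0) of the 10 chemokine genes in the 14 libraries, by group (x axis); marker shape is the library number within a group and the line is the group mean. Ccl28, Cxcl10 and Cxcl1 have all TRACK libraries above all WT libraries, and TRACK-VAD library 2 is the highest of its group for 7 genes and the lowest for Ccl28.

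On chow, the transgene was accompanied by higher levels of 3 of the 10 chemokine genes: Ccl28, a ligand of plasma cells, was 15.8-fold higher in the ratio of group means, Cxcl10, an interferon-induced T cell attractant, 3.65-fold, and Ccl5 3.08-fold. None was called lower. The other 7 did not pass the test, among them the 3 ligands of highest level in WT (Cxcl12, Cxcl16 and Cx3cl1). Tests were made with limma on log2(scaled FPKM + 1), with Benjamini-Hochberg adjusted p at or under 0.05 over 12251 genes; of these, 17% were called in either direction, 8.83% higher and 8.2% lower. All 5 members with an unadjusted p at or under 0.05 were higher (Cxcl1, Cxcl10, Cx3cl1, Ccl5 and Ccl28). The share of all genes at that unadjusted p was not computed, so this count has no background beside it. TRACK libraries lay entirely above WT libraries for Cxcl1, Cxcl10, Cxcl16, Ccl5 and Ccl28, against 19.2% of all genes. Cxcl1 is counted in both sets although it entered the tests through its transgenic libraries only. The median log2 difference of the 10 was 0.58, beside 0.01 over all genes. In a fit of these 2 groups alone, 6 members were called, with more genes called over the whole table as well (counts below). The authors' deposited table called 4 of 9 (Cxcl1, Cxcl10, Ccl5 and Ccl28), and Ccl2 had no adjusted p there. The share of all genes that the authors called was not computed here, so 4 of 9 has no background beside it. Without scaling, the median of all genes moved to 0.16 in this comparison and to 0.18 between TRACK-VAD and WT-VAD, and the share of calls that were higher moved from 51.8% to 80.3% and from 51% to 82.7%; no chemokine difference changed its sign.

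On the deficient diet, 6 of the 10 genes were higher in TRACK-VAD than in WT-VAD: Cxcl1, Cxcl10, Cxcl14, Cxcl16, Ccl2 and Ccl5. The ratios of group means ran from 1.57 for Cxcl16 to 19.5 for Cxcl1. Without TRACK-VAD library 2 the ratio of Cxcl1 was 9.99 and that of Ccl2 went from 13.0 to 5.03. These ratios divide by low WT-VAD means (0.252 for Cxcl1 and 0.321 for Ccl2). No wild-type library reached 1 FPKM of either gene, so both entered the tests through transgenic libraries only. No member was called lower, although Cxcl12 was lower at an unadjusted p of 0.0267 (adjusted p = 0.0898 by limma). Over all genes, 22.1% were called, 11.3% higher and 10.8% lower; the 6 called members were also those whose groups did not overlap, against 14.6% of all genes. The median log2 difference of the 10 was 1.12, beside -0.01 over all genes. The authors' deposited table called 7 of the 9 members with an adjusted p, Cxcl9 and Ccl28 among them, again with no share of all genes beside it. Without TRACK-VAD library 2 the fit called 7 members, these 6 and Ccl28, beside 1843 genes in all. Without WT-VAD library 1 or 3 it called 3 members, and fewer genes over the whole table as well. With lane as a term, which rests on TRACK-VAD library 4 alone against the 3 WT-VAD libraries of its lane, 1 member was called (Ccl28, 2.52, adjusted p = 0.042), and a fit of these 2 groups alone called 1 (Cxcl10). Within lane 6, TRACK-VAD library 4 was above all 3 WT-VAD libraries for 8 of the 10 genes, below them for Cxcl12 and among them for Cxcl9. The share of all genes placed above in this way was not computed, so 8 of 10 has no background beside it. Cxcl16 was above by little (31.7 scaled FPKM beside 31.5 in the highest WT-VAD library).

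**Figure D2:**
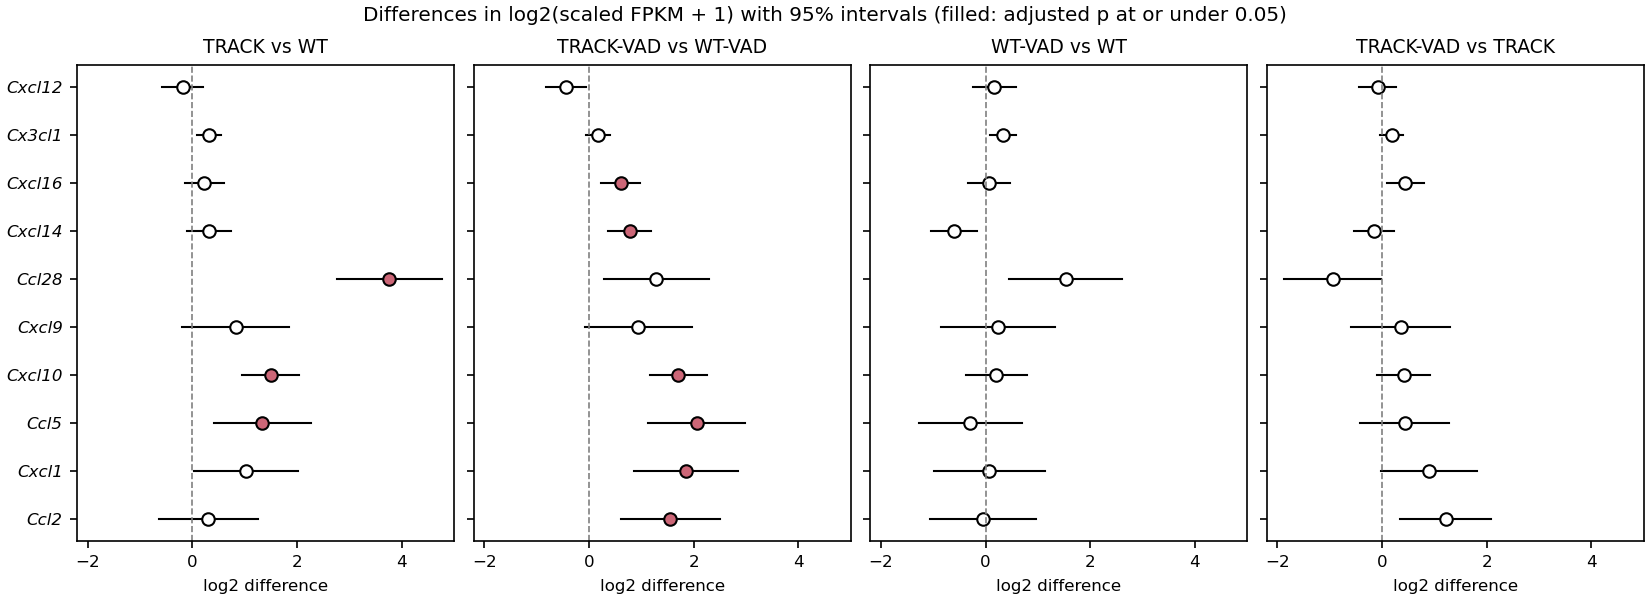
Log2 differences with 95% intervals (x axis, log2(scaled FPKM + 1)) of the 10 genes (y axis) in the 4 pairwise comparisons from limma; filled points passed adjusted p at or under 0.05. There are 3 filled points for TRACK against WT, 6 for TRACK-VAD against WT-VAD and 0 for either diet comparison.

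Cxcl10 (ENSMUSG00000034855, chromosome 5, 92346638 to 92348889, coordinates of the deposited table) was called in both genotype comparisons. Cxcl10 was at 1.87, 2.73 and 2.39 scaled FPKM in the WT libraries (in order of number, as below), 7.84, 10.4, 9.8 and 5.92 in TRACK, 3.38, 3.23 and 1.99 in WT-VAD and 17.5, 14.2, 8.81 and 7.65 in TRACK-VAD. Every transgenic library was above every wild-type library, also across diets. Genotypes differed by 1.49 on the log2 scale (SE 0.25, adjusted p = 0.00172) on chow and 1.71 (SE 0.25, adjusted p = 0.000886) on the deficient diet. Leaving out any 1 library kept both calls, with log2 differences of 1.39 to 1.64 and 1.51 to 1.88. The gene lies within Art3, which is on the other strand, and strand use in counting is not given in the sources used here, so reads of the pair may not have been told apart.

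Cxcl9 (ENSMUSG00000029417, chromosome 5, 92321347 to 92328079), the other CXCR3 ligand measured, was called in neither genotype comparison by limma, while the authors' deposited table called it on the deficient diet (log2 fold change 1.26, adjusted p = 0.00123). Its levels, in scaled FPKM, were 0.63, 0.427 and 0.388 in WT, 0.614, 3.08, 0.958 and 2.69 in TRACK, 1.34, 0.544 and 0.469 in WT-VAD and 0.569, 6.96, 3.7 and 1.17 in TRACK-VAD. TRACK libraries 2 and 4 and TRACK-VAD libraries 2 and 3 were above every wild-type library, while the other 4 transgenic libraries were within the wild-type range. The log2 difference was 0.83 (95% interval -0.19 to 1.85, adjusted p = 0.245) on chow and 0.95 (-0.07 to 1.96, adjusted p = 0.166) on the deficient diet, and the latter was 0.53 without TRACK-VAD library 2. Only 7 libraries reached 1 FPKM, 6 of them transgenic.

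Ccl5 (ENSMUSG00000035042, chromosome 11, 83525778 to 83530518) was higher in both genotype comparisons. Its levels, in scaled FPKM, were 3.91, 3.3 and 2.06 in WT, 7.81, 11.8, 12.6 and 5.86 in TRACK, 4.07, 1.76 and 1.53 in WT-VAD and 10.9, 33.9, 9.69 and 6.84 in TRACK-VAD. No transgenic library overlapped wild type of the same diet, and TRACK-VAD library 2 was far above its group. On the log2 scale the difference was 1.34 (SE 0.43, adjusted p = 0.048) on chow and 2.06 (SE 0.43, adjusted p = 0.00643) on the deficient diet. The call on chow was lost without any 1 of 6 of the 7 libraries (all but TRACK 4), with adjusted p up to 0.175, and without the filter on low values (adjusted p = 0.0798). Without TRACK-VAD library 2 the difference on the deficient diet was 1.61 (adjusted p = 0.00454).

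Cxcl1 (ENSMUSG00000029380, chromosome 5, 90891241 to 90893115) was under 1 scaled FPKM in all wild-type libraries and above it in all transgenic libraries. Its levels, in scaled FPKM, were 0.182, 0.33 and 0.0565 in WT, 1.13, 1.51, 1.9 and 1.19 in TRACK, 0.0625, 0.255 and 0.438 in WT-VAD and 4.94, 12.1, 1.48 and 1.13 in TRACK-VAD. TRACK-VAD libraries 1 and 2 were the highest of all. Between genotypes the log2 difference was 1.86 (SE 0.46, adjusted p = 0.0141) on the deficient diet and 1.03 (95% interval 0.03 to 2.02, adjusted p = 0.14) on chow. On chow the gene was called with a pseudocount of 0.1 (2.49, adjusted p = 0.0228), which weighs low values more, and in the fit of these 2 groups alone (adjusted p = 0.00117); on the deficient diet the call was lost without WT-VAD library 1 (adjusted p = 0.0511). Since wild-type libraries never reached the minimum of 1 FPKM, the gene entered the tests through its transgenic libraries only.

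Ccl2 (ENSMUSG00000035385, chromosome 11, 82035571 to 82037453) was the lowest of the 10 in TRACK and entered the tests through 5 transgenic libraries. Its levels, in scaled FPKM, were 0.136, 0.52 and 0.444 in WT, 0.986, 0.793, 0.353 and 0.636 in TRACK, 0.371, 0.365 and 0.227 in WT-VAD and 1.7, 11.9, 1.82 and 1.32 in TRACK-VAD. All 4 TRACK-VAD libraries exceeded all others, and library 2 was 11.9 beside 1.32 to 1.82 in the rest of its group. In log2 units the difference was 1.56 (SE 0.44, adjusted p = 0.0246) on the deficient diet and 0.31 (95% interval -0.64 to 1.25, adjusted p = 0.669) on chow. Without TRACK-VAD library 2 the former fell by over 1.5 times to 0.98 (adjusted p = 0.00127), and it lost its call without any 1 of the WT-VAD libraries (adjusted p up to 0.0738). The gene lies within Gm17268 on the other strand, with the same limit as for Cxcl10.

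Ccl28 (ENSMUSG00000074715, chromosome 13, 119623819 to 119654354) showed the largest difference of the 10 on chow. Its levels, in scaled FPKM, were 5.69, 6.82 and 2.68 in WT, 51, 91.8, 101 and 75.4 in TRACK, 17.2, 15.1 and 14.8 in WT-VAD and 29, 15.5, 57.2 and 94.4 in TRACK-VAD. TRACK lay far above WT, WT-VAD was above WT without overlap, and TRACK-VAD spread from the WT-VAD range (library 2) to the TRACK range (library 4). On chow the log2 difference was 3.76 (SE 0.47, adjusted p = 0.000156), and 3.44 to 3.98 when any 1 library was left out. On the deficient diet it was 1.29 (95% interval 0.28 to 2.29, adjusted p = 0.0635), and 1.72 (adjusted p = 0.00968) without TRACK-VAD library 2. The interaction of genotype and diet was -2.47 (95% interval -3.90 to -1.05), which did not pass over all genes (unadjusted p = 0.00231, adjusted p = 0.388). WT-VAD libraries and TRACK-VAD library 4 were in lane 6 and all other libraries in lane 5. The comparisons with WT-VAD and the interaction therefore differ in lane as well. Within lane 6, TRACK-VAD library 4 stood 2.52 above the WT-VAD mean on the log2 scale.

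Cxcl16 and Cx3cl1 encode the transmembrane ligands. WT libraries held 24.2, 23.3 and 24.8 scaled FPKM of Cxcl16, TRACK libraries 26.8, 28.8, 28.9 and 29.1, WT-VAD libraries 24.6, 31.5 and 20.8 and TRACK-VAD libraries 39, 57.8, 32.1 and 31.7. Cxcl16 (ENSMUSG00000018920, chromosome 11, 70453983 to 70459984) was above wild type of the same diet in every transgenic library. Its log2 difference was 0.23 (adjusted p = 0.391) on chow and 0.60 (SE 0.18, adjusted p = 0.0281) on the deficient diet, a call lost without TRACK-VAD 1, WT-VAD 1 or WT-VAD 3 (adjusted p up to 0.117). It shares 552 bases with Zmynd15 on the other strand, with the same limit as for Cxcl10.

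WT libraries held 20, 23.7 and 20.7 scaled FPKM of Cx3cl1, TRACK libraries 22.7, 28.6, 28 and 29.2, WT-VAD libraries 26, 27.1 and 28.7 and TRACK-VAD libraries 26.2, 34.4, 32.6 and 30.5. For Cx3cl1 (ENSMUSG00000031778, chromosome 8, 94772009 to 94782427), WT libraries were the lowest group, and only TRACK 1 fell within their range. The log2 difference was 0.32 (95% interval 0.09 to 0.55, adjusted p = 0.0548) on chow and 0.17 (-0.06 to 0.40, adjusted p = 0.268) on the deficient diet. The first passed without scaling (0.49, adjusted p = 0.0155), in the fit of 2 groups (adjusted p = 0.0433) and without WT 2 or TRACK 1 (lowest adjusted p 0.0195), and the second without scaling (0.37, adjusted p = 0.0392).

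The 2 remaining CXC ligands are expressed constitutively in many tissues. Levels of Cxcl12 were 54.9, 40.7 and 39.6 scaled FPKM in WT, 35.4, 40.2, 42.8 and 37.7 in TRACK, 49.1, 47.3 and 54.5 in WT-VAD and 25.8, 37.1, 51.7 and 36.3 in TRACK-VAD. Cxcl12 (ENSMUSG00000061353, chromosome 6, 117168535 to 117181367) was the only member with lower means in both transgenic groups, with overlap in each comparison. Its log2 difference was -0.19 (95% interval -0.58 to 0.20, adjusted p = 0.492) on chow and -0.45 (-0.83 to -0.06, adjusted p = 0.0898) on the deficient diet; the latter was -0.61 (adjusted p = 0.0109) without TRACK-VAD library 3 and -0.28 without TRACK-VAD library 1, with adjusted p up to 0.223. On chow the difference ran from -0.27 to -0.043 when 1 library was left out.

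Levels of Cxcl14 were 6.61, 8.34 and 4.48 scaled FPKM in WT, 7.18, 8.57, 7.86 and 8.85 in TRACK, 5.63, 3.35 and 2.81 in WT-VAD and 6.22, 8.08, 7.75 and 6.91 in TRACK-VAD. Cxcl14 (ENSMUSG00000021508, chromosome 13, 56288647 to 56296551) was lowest in WT-VAD, where no library reached the TRACK-VAD range. The log2 difference was 0.78 (SE 0.19, adjusted p = 0.0137) on the deficient diet and 0.32 (95% interval -0.10 to 0.73, adjusted p = 0.273) on chow, where it was 0.11 without WT 3 and 0.49 without WT 2. The group means behind the called difference were 7.24 ± 0.84 in TRACK-VAD and 3.93 ± 1.49 in WT-VAD, beside 6.48 ± 1.93 in WT and 8.12 ± 0.75 in TRACK. The call was lost without WT-VAD 2 or WT-VAD 3 (adjusted p up to 0.0647).

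In the fit of all 4 groups, limma called no chemokine difference between diets in either genotype; the diet comparisons share their WT and TRACK libraries with the comparison of genotypes on chow, and their VAD libraries with the other. Between WT-VAD and WT, 0 of 10 members passed by limma, beside 63 genes in all (0.514%; 0.22% higher and 0.294% lower), and 0 of 9 in the authors' deposited table. At an unadjusted p at or under 0.05, Cx3cl1 (0.33, adjusted p = 0.287) and Ccl28 (1.53, adjusted p = 0.256) were higher and Cxcl14 (-0.61, adjusted p = 0.274) lower in WT-VAD. No share of all genes at that unadjusted p was computed. WT-VAD libraries were all above WT for Cx3cl1 and Ccl28, against 9.37% of all genes (8.95% lay entirely below), and in the fit of these 2 groups alone Ccl28 was called (adjusted p = 0.0376). All WT libraries were in lane 5 and all WT-VAD libraries in lane 6, so no lane holds both groups. With lane as a term, whose size then rests on TRACK-VAD library 4 beside libraries 1 to 3, Ccl28 was at -0.11, Cx3cl1 at 0.35 and Cxcl14 at -0.54, and no gene passed.

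Between TRACK-VAD and TRACK, 0 of 10 members passed by limma, beside 19 genes in all (0.155%; 0.147% lower); the authors' deposited table called Cxcl1 (log2 fold change 1.14, adjusted p = 0.043). Unadjusted p values at or under 0.05 were those of Cxcl16 (0.44, adjusted p = 0.385) and Ccl2 (1.21, adjusted p = 0.332), higher, and Ccl28 (-0.94, adjusted p = 0.473), lower in TRACK-VAD. The share of all genes at that unadjusted p was not computed, here or for the interaction. TRACK-VAD libraries were all above TRACK for Cxcl16 and Ccl2, against 2.17% of all genes. Without TRACK-VAD library 2 the 3 differences were 0.26, 0.64 and -0.51, and Ccl5 went from 0.43 to -0.02. Among lane 5 libraries only, that is without TRACK-VAD library 4, they were 0.54, 1.46 and -1.35, with adjusted p of 0.191, 0.165 and 0.153. For the interaction of genotype and diet, 0 of 10 members and 1 of all genes passed (0.00816%), and 1 member, Ccl28, had an unadjusted p at or under 0.05.

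**Figure D3:**
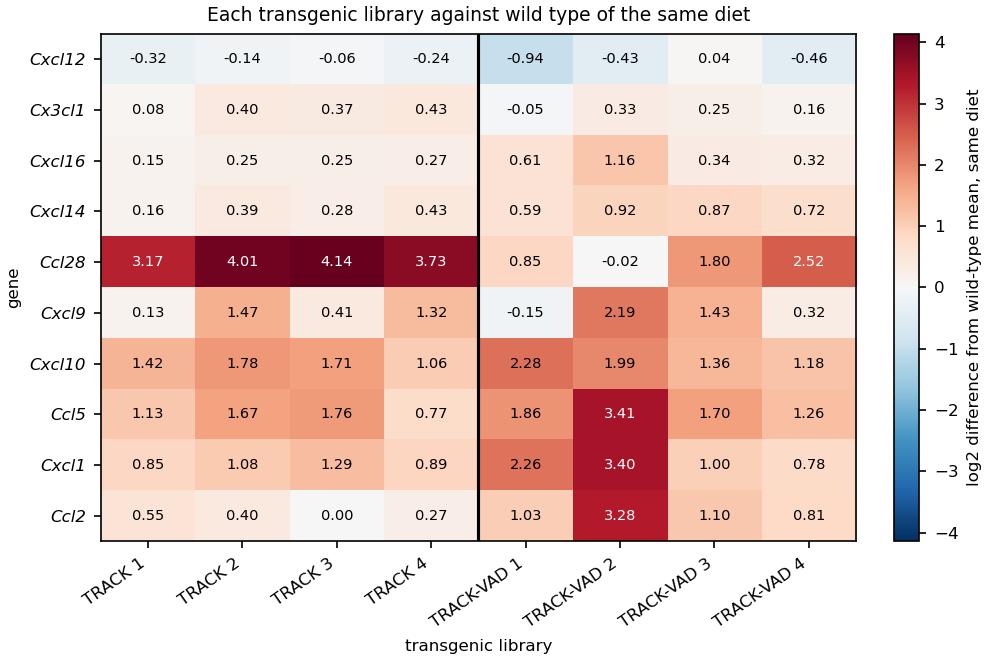
Difference in log2(scaled FPKM + 1) of each TRACK and TRACK-VAD library (x axis) from the wild-type mean of the same diet, for the 10 chemokine genes (y axis); red is higher, blue lower. In TRACK libraries Ccl28 lies between 3.17 and 4.14, while TRACK-VAD library 2 has the highest values for Cxcl1, Ccl2 and Ccl5 and -0.018 for Ccl28.

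The transgenic libraries on the deficient diet differed among themselves. TRACK-VAD library 2 was the highest of its group for 7 of the 10 genes (Cxcl1, Cxcl9, Cxcl14, Cxcl16, Cx3cl1, Ccl2 and Ccl5) and the lowest for Ccl28. TRACK-VAD library 4 was the highest for Ccl28 and the lowest for 5 genes (Cxcl1, Cxcl10, Cxcl16, Ccl2 and Ccl5). Over the 14 libraries, the Pearson correlation of log2 levels was 0.906 between Cxcl16 and Ccl2, 0.899 between Cxcl1 and Cxcl16 and 0.889 between Cxcl10 and Ccl5. That of Ccl28 with Ccl2 was 0.124, and with Cxcl10 0.671. For deviations of libraries from their group means these turned to -0.749 and -0.452, while the first 3 pairs were at 0.786, 0.78 and 0.595. These are descriptions over libraries that share group differences, and TRACK-VAD library 2 enters each.

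Markers of several other cell types were higher beside the chemokine genes, and their part in the results was not tested. All 9 macrophage and dendritic cell markers were higher in both genotype comparisons (4 on chow without WT library 3), and their summed level was 149 to 167 in WT, 141 to 217 in WT-VAD, 301 to 386 in TRACK and 400 to 1022 in TRACK-VAD. The 10 T and NK cell markers in the table summed to 4.14 to 5.29 in WT, 2.61 to 5.15 in WT-VAD, 7.13 to 11.5 in TRACK and 6.63 to 24.8 in TRACK-VAD, with 1 of 5 tested markers higher on chow and 3 on the deficient diet. The 6 B and plasma cell markers summed to 12.4 to 21.6 in WT, 23.3 to 46.1 in WT-VAD, 166 to 383 in TRACK and 48.7 to 259 in TRACK-VAD. This is an order of groups like that of Ccl28, and all 4 tested were higher in both genotype comparisons. Jchain reached 381 FPKM and the other markers of this list at most 6.89, so the high sums are mainly Jchain. Cd74 was likewise the largest part of the macrophage and dendritic cell sum. Of the 6 neutrophil markers, Ly6g and Mpo were listed at 0 in 12 and Elane in 13 of 14 libraries. The sum reached 20.5 in TRACK-VAD library 2, the library with the highest Cxcl1, and S100a8 (8.81) and S100a9 (10.1) made up most of it. Neutrophil sums overlapped between TRACK (3.82 to 6.09) and WT (4.11 to 4.44). Endothelial markers were higher in 7 of 8 in both genotype comparisons, with sums of 165 to 187 in WT, 167 to 175 in WT-VAD, 255 to 279 in TRACK and 236 to 332 in TRACK-VAD. Fibroblast and pericyte markers were higher in 1 of 7 on chow and 2 of 7 on the deficient diet, with sums of 35.7 to 49.7, 32.1 to 46.3, 52.1 to 81.8 and 52.5 to 95.5 in the same order of groups. Tubular injury markers were higher in 3 of 6 tested on chow and 6 of 6 on the deficient diet. Among the tested markers, Cd3e, Cd4, Lck, Mrc1 and Krt20 stayed under 1 scaled FPKM in every wild-type library. They entered the tests through transgenic libraries only, which limits the counts of their lists.

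Receptors of the chemokines were also measured. Of 23 receptor genes, 7 passed the filter on low values. Of these, 2 were higher in TRACK than WT (Cxcr4 and Ccr2), and 6 in TRACK-VAD than WT-VAD (these, Cxcr6, Cx3cr1 and Ccrl2 among them), none lower in either, with medians of 0.44 and 0.94. In scaled FPKM, Cxcr4 read 2.85, 3.64 and 3.75 in WT, 5.03, 4.77, 6.63 and 7.14 in TRACK, 2.69, 2.7 and 3.99 in WT-VAD and 5.4, 10.5, 7.35 and 6.82 in TRACK-VAD. This receptor of CXCL12 was above wild type of the same diet in every transgenic library. Its log2 difference was 0.63 (adjusted p = 0.0355) on chow and 1.03 (adjusted p = 0.00324) on the deficient diet. Levels of Ccr2 were 1.74, 1.95 and 1.68 scaled FPKM in WT, 3.19, 3.72, 4.09 and 4.14 in TRACK, 1.92, 2.08 and 1.92 in WT-VAD and 3.47, 9.41, 4.12 and 5.59 in TRACK-VAD. This receptor of CCL2 was likewise without overlap, with log2 differences of 0.77 (adjusted p = 0.0243) and 1.08 (adjusted p = 0.00455). On chow the call of Cxcr4 was lost without any 1 WT library, TRACK 3 or TRACK 4 (adjusted p up to 0.143), and that of Ccr2 without WT 1, WT 3, TRACK 2, TRACK 3 or TRACK 4 (up to 0.0871).

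Levels of Cx3cr1 were 1.45, 1.43 and 1.31 scaled FPKM in WT, 2.68, 2, 2.27 and 2.02 in TRACK, 1.8, 1.34 and 1.7 in WT-VAD and 3.59, 6.4, 3.1 and 3.48 in TRACK-VAD. The receptor of CX3CL1 had log2 differences of 0.43 (adjusted p = 0.0936) on chow and 0.94 (adjusted p = 0.0028) on the deficient diet. WT libraries held 0.558, 0.548 and 0.258 scaled FPKM of Cxcr6, TRACK libraries 0.813, 1.24, 1.3 and 0.587, WT-VAD libraries 0.594, 0.289 and 0.457 and TRACK-VAD libraries 1.75, 3.91, 1.11 and 0.684. For this CXCL16 receptor the log2 differences were 0.44 (adjusted p = 0.294) and 0.87 (adjusted p = 0.0394), the latter lost without TRACK-VAD library 2 (0.57, adjusted p = 0.0593) and without TRACK-VAD 1 or any 1 WT-VAD library (adjusted p up to 0.117). No wild-type library reached 1 FPKM of Cxcr6, so it entered the tests through its transgenic libraries only. Library 2 of TRACK-VAD was the highest library of all for each of these receptors. With lane as a term, none of the receptor calls on the deficient diet remained (adjusted p 0.132 to 0.842 for the 4 receptors given here), with log2 differences of 0.94 for Cxcr4, 1.15 for Ccr2, 0.78 for Cx3cr1 and 0.22 for Cxcr6 from a single transgenic library.

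**Figure D4:**
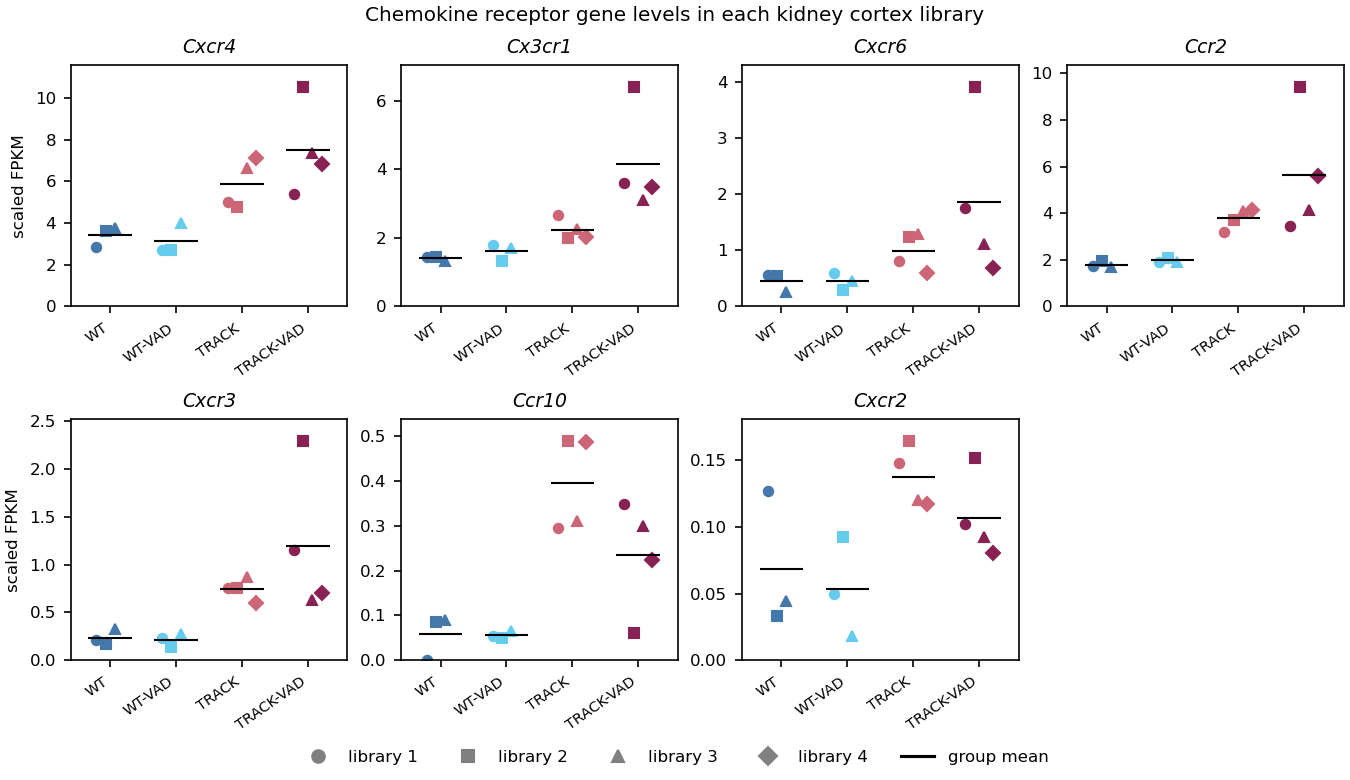
Scaled FPKM (y axis, linear, from 0) of 7 receptors of the chemokines in the 14 libraries, by group (x axis); marker shape is the library number and the line the group mean. Cxcr4, Ccr2, Cx3cr1 and Cxcr3 have all transgenic libraries above all wild-type libraries, a trait whose share over all genes was not computed. Ccr10 has its highest value (0.49) in TRACK, and Cxcr2 reaches at most 0.164.

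The CCL28 and CXCR3 ligand receptors were below the filter. In scaled FPKM, Ccr10 read 0, 0.0848 and 0.0906 in WT, 0.296, 0.49, 0.31 and 0.487 in TRACK, 0.0535, 0.0486 and 0.0664 in WT-VAD and 0.35, 0.062, 0.301 and 0.224 in TRACK-VAD. In a fit with no filter on low values (17879 genes) the difference between TRACK and WT was 0.39 (SE 0.08, adjusted p = 0.00738), and between TRACK-VAD and WT-VAD 0.21 (SE 0.08, adjusted p = 0.0777). Levels of Cxcr3 were 0.213, 0.166 and 0.331 scaled FPKM in WT, 0.754, 0.754, 0.867 and 0.595 in TRACK, 0.234, 0.138 and 0.273 in WT-VAD and 1.15, 2.29, 0.634 and 0.706 in TRACK-VAD. In that fit the differences were 0.48 (adjusted p = 0.108) and 0.78 (adjusted p = 0.0166). Values this low rest on few reads, and a gene with no reads in a library is listed at 0, as was Ccr10 in WT library 1.

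Among 30 other chemokine ligands, 6 passed the filter, and 2 were called. In scaled FPKM, Ccl9 read 0.773, 1.11 and 1.29 in WT, 3.61, 3.36, 5.31 and 5.35 in TRACK, 0.742, 1.61 and 2.19 in WT-VAD and 5.94, 17.1, 5.69 and 3.64 in TRACK-VAD. Ccl9, a mouse ligand of CCR1, had log2 differences of 1.38 (adjusted p = 0.0191) on chow and 1.70 (adjusted p = 0.00673) on the deficient diet; the former was lost without WT 1, WT 3 or TRACK 3 (adjusted p up to 0.0805). Levels of Ccl25 were 6.82, 4.95 and 5.01 scaled FPKM in WT, 4.11, 2.59, 3.97 and 2.68 in TRACK, 3.95, 6.83 and 4.46 in WT-VAD and 3.61, 3.05, 4.13 and 2.91 in TRACK-VAD. Ccl25, a ligand of CCR9 known from thymus and gut, was lower in TRACK (log2 difference -0.61, adjusted p = 0.0349), a call lost without scaling (-0.47, adjusted p = 0.0815) and without any 1 WT library, TRACK 2 or TRACK 4 (adjusted p up to 0.155); on the deficient diet it was -0.44 (adjusted p = 0.0986). Of 8 tested genes that shed, cut or hold chemokines, 1 was higher in each genotype comparison, Sdc1 on chow and Mmp14 on the deficient diet, while the sheddase genes Adam10 and Adam17 were called in neither.

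Genes that induce chemokines, or answer interferon gamma, were read from lists. Of 16 tested inducer genes (interferon gamma and TNF pathways), 3 were higher on chow and 8 on the deficient diet, with medians of 0.37 and 0.57; without scaling the counts were 5 and 14. Of 14 interferon gamma response genes, 6 and 11 were higher, with medians of 0.67 and 0.85, and none was lower in either list and comparison. Il1b and Nfkbiz of the inducers and Gbp5 and Ciita of the response genes stayed under 1 scaled FPKM in every wild-type library. They entered the tests through transgenic libraries only. On chow the interferon gamma count was 0 to 4 when 1 library was left out (0 without WT 3), and on the deficient diet the inducer count was 4 without WT-VAD 2 and 14 without TRACK-VAD 4. Ifng and Tnf themselves did not reach 1 FPKM in any library (highest deposited values 0.315 and 0.666). Irf7, an interferon-induced transcription factor, had log2 differences of 0.998 (adjusted p = 0.00667) and 1.32 (adjusted p = 0.00151). Tap1, a peptide transporter of antigen presentation, had 0.77 (adjusted p = 0.0146, and 0.0717 without WT 3) and 1.12 (adjusted p = 0.00204), and Gbp2, an interferon-induced GTPase, 0.92 (adjusted p = 0.0987) and 1.62 (adjusted p = 0.00909). With lane as a term, these 3 genes were not called on the deficient diet (adjusted p 0.158 to 0.435), with log2 differences of 1.01 for Irf7, 0.92 for Tap1 and 1.02 for Gbp2.

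For each chemokine gene, the 3 genes with the most similar pattern over the 14 libraries were taken by Pearson correlation of log2 levels, as a description over libraries that share groups. Cxcl10 was nearest to Irf7 (0.971), Slamf7 (0.966) and Xaf1 (0.963), and Cxcl9 to Igtp (0.911), Gbp2 (0.906) and Ubd (0.886). Cxcl1 was nearest to Gpr65 (0.979), Cd14 (0.978) and Vav1 (0.976). The nearest of Ccl5 were Epsti1 (0.976), the T cell gene Cd3e (0.969) and Sfn (0.967), and those of Ccl2 were Rab31 (0.959), Tnfaip8l2 (0.955) and Akr1b7 (0.951). Ccl28 was nearest to Asb11 (0.971), the glycolytic gene Pgam1 (0.971) and Pdgfd (0.962). These were all called higher in TRACK than WT, as were the 3 nearest of Cxcl10. Cxcl16 was nearest to Psme1 (0.971), Slamf9 (0.962) and Clic1 (0.962). For the others the highest values were lower, at 0.904 for Cxcl12 with Nrd1, 0.891 for Cx3cl1 with Chsy1 and 0.874 for Cxcl14 with Maml3. No chemokine gene was among the 3 nearest of another.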

How the data were processed

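Kidney cortex RNA was sequenced as 51-base single-end reads, per the labels' protocols. The authors deposited FPKM per gene and library, and 6 tables of comparisons holding mean normalized counts (a signal scaled by size factors), log2 fold changes with standard errors, and p-values. The submitters' processing notes name DESeq 1.32 and mm9, while the deposited gene positions match GRCm38; no source used here names the aligner or the FPKM program. Counts per library were not analysed here, so the FPKM were tested on a log scale. One row per gene ID was kept (22007 of 22053 rows), libraries were scaled by the trimmed mean of their log ratios (trimming 30% by ratio and 5% by level), and genes were kept that reached 1 FPKM in 3 or more of 14 libraries, less 17 genes listed at 0 in a library of a group that otherwise expressed them, a step added after values were seen. limma 3.58.1 (R 4.3.3, trend) was fitted to log2(FPKM + 1) over all 4 groups, with two-sided tests and Benjamini-Hochberg adjustment over 12251 genes at 0.05. Such differences understate the change of low genes. The fit was tested on simulated data. Figures and tables used Python 3.11.15, pandas 2.3.3 and matplotlib 3.10.9. The members and lists were chosen with earlier results of these data known. A receptor gene of the list is not reported here. Genes named outside the 10 include receptors, other called ligands, 3 interferon-response genes, members of the lists and the 3 nearest genes by correlation. Alternatives were no scaling, a pseudocount of 0.1, no filter, fits of the 2 groups compared, a replicate block, a lane term and leaving out each library; those for genes and lists outside the 10 were added after seeing the data. Libraries were treated as 1 mouse each; where libraries share one, p-values measure technical spread. Of the table, 6 columns of per-sample values were not used.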

Additional observations from a re-analysis of the deposited data

Results flagged for a closer look

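Dixon's test was applied to the 20 sets of 4 transgenic libraries (10 genes in TRACK and in TRACK-VAD) at its 95% level, and chance flags about 1 set in 20. It marked 3 sets. Ccl2 in TRACK-VAD had a highest library of 11.9 scaled FPKM (library 2), with the nearest at 1.82 (gap over range 0.952). Ccl5 in TRACK-VAD had a highest library of 33.9 scaled FPKM, again library 2, with the nearest at 10.9 (0.85). Cxcl16 in TRACK had a lowest library of 26.8 scaled FPKM (library 1), with the nearest at 28.8 (0.839), which is a small step beside the level. TRACK-VAD library 2 also had the highest sums of macrophage, T and NK cell, neutrophil and tubular injury markers; their part in these values was not tested.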

How the results depend on the processing

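Cxcl10 in both genotype comparisons, Ccl28 on chow and Ccl5 on the deficient diet kept their calls whichever 1 library was left out, and no member changed sign without scaling. Fits of the 2 groups alone called 6 members and 3442 genes for TRACK against WT, 1 and 568 for TRACK-VAD against WT-VAD, 1 and 112 for WT-VAD against WT, and 3 genes for TRACK-VAD against TRACK. With a lane term these were 1 member and 221 genes for TRACK-VAD against WT-VAD, 0 genes for WT-VAD against WT, 56 for TRACK-VAD against TRACK and 0 for the interaction; in the same fit the sign turned between WT-VAD and WT for Ccl2 (0.95), Ccl5 (0.78) and Ccl28 (-0.11), and in the interaction for Cxcl1 (-0.25), Cxcl9 (-0.51), Cxcl10 (-0.31) and Ccl5 (-0.079). Without scaling the interaction called 4 genes; with a pseudocount of 0.1 it called 0, TRACK-VAD against TRACK 10, and the Cxcl9 interaction was -0.055. Without the filter, WT-VAD against WT called 40 genes. A fit of 2 groups holds fewer libraries and takes its spread from those groups alone. The causes of these shifts were not tested.

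Leaving out each library in turn gave 2 to 3 members for TRACK against WT and 3 to 7 for TRACK-VAD against WT-VAD, with 1010 to 1876 and 1570 to 3454 genes; WT-VAD against WT called 5 to 44 genes, TRACK-VAD against TRACK 8 to 56 and the interaction 0 to 7. Signs turned for differences that none of these fits called: between WT-VAD and WT for Cxcl1 (-0.036 to 0.18), Cxcl16 (-0.087 to 0.20) and Ccl2 (-0.17 to 0.043), between TRACK-VAD and TRACK for Cxcl9 (-0.060 to 0.72), Cxcl12 (-0.25 to 0.078) and Ccl5 (-0.019 to 0.70), and in the interaction for Cxcl9 (-0.30 to 0.48).

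Replicate numbers were not treated as pairs: 4 of 13 same-number pairs had correlated deviations over 0.1 (-0.142 to 0.382). Pairs of different numbers were not compared, so these values do not settle whether libraries were paired. A replicate block called 7 genes for TRACK-VAD against TRACK and 0 for the interaction, and Cx3cl1 on chow (0.31, adjusted p = 0.0297). Ccl2, Cxcl1 and Cxcl9 rest on the fewest reads, with mean normalized counts of 27.7, 46.7 and 62.9 in the authors' deposited table.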
